A study of Mus musculus with 10 samples.

Results

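The genes described here are the aquaporins *Aqp1*, *Aqp2*, *Aqp3*, *Aqp4*, *Aqp5*, *Aqp7*, *Aqp8*, *Aqp9* and *Aqp11*, which were chosen by gene symbol. All 9 were listed among the 17816 genes measured in Sertoli cells at day 7 and among the 20007 genes measured in adult testis. RNA-seq was used to ask what changes in mice in which *Rnf20*, the gene of an E3 ubiquitin ligase for histone H2B, is deleted in the Sertoli cells, the somatic nurse cells of the seminiferous tubules. The Sertoli cells came, by sample title and the study's methods, from testes 7 days after birth (a growth entry in the labels names adult tissue for all samples), with 2 samples of *Rnf20* Flox/Flox mice, which the labels call wild type, and 2 samples of *Amh-Rnf20*-/- mice, which carry the floxed alleles and a Cre driven by the *Amh* promoter of Sertoli cells. They were adherent cells, used after several passages in culture, with no sort for cell type described. The adult samples were whole testis, 3 labelled WT and 3 labelled as conditional knockout of RNF20 (hereafter cKO). No treatment was given to any group. Neither the adult age nor the alleles of the adult WT mice are given in the labels, and nothing says whether samples were pooled from several animals, so p-values measure only the spread between these samples.

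Aquaporins are membrane channels that let water cross along an osmotic gradient. *Aqp1*, *Aqp2*, *Aqp4* and *Aqp5* encode water-selective channels, *Aqp3*, *Aqp7* and *Aqp9* encode aquaglyceroporins that also pass glycerol, *Aqp8* encodes a channel for water that also passes ammonia and hydrogen peroxide, and *Aqp11* encodes an unorthodox member found mainly in intracellular membranes. In the testis, tubule fluid is secreted by the Sertoli cells, and spermatids shed much of their water and cytoplasm as they become spermatozoa.

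Levels are given as FPKM, a level scaled by library size and by gene length, which can be compared between genes. Estimated counts summed to 17477268 to 17705347 per sample at day 7 and to 15431912 to 16574144 in adult testis. Fold changes, their standard errors and p-values are from edgeR's quasi-likelihood test on those counts with TMM scaling, and a gene was called changed at a Benjamini-Hochberg adjusted p under 0.05 over all genes tested in its table. The test took 12880 genes at day 7 and 15919 in adult testis, those that reached an FPKM of 0.5 in no fewer samples than 1 group has.

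The labels were checked first. In Sertoli cells *Rnf20* was at 16.64 and 16.01 FPKM in *Rnf20* Flox/Flox and at 10.25 and 12.58 in *Amh-Rnf20*-/-, lower in both but not called (log2 fold change -0.49, adjusted p = 0.222). In adult testis *Rnf20* was at 4.89, 3.32 and 4.09 FPKM in WT and at 9.16, 5.76 and 9.85 in the libraries labelled cKO, so these levels were not lower under the knockout label (log2 fold change 0.12, adjusted p = 0.688), and the groups overlapped in TMM-scaled CPM (counts scaled to library size). Only part of the gene is floxed and the reads were counted over all of it. The part of this, or of the cell makeup of the samples, in the *Rnf20* levels was not tested. Sertoli cell markers were present in every sample, and at day 7 *Sox9* was at 41.84 and 39.43 FPKM in controls and at 10.19 and 25.66 in *Amh-Rnf20*-/-. In the adult, cKO replicate 1 stood apart from the other cKO libraries. At day 7 the 2 *Amh-Rnf20*-/- libraries differed from each other, with replicate 1 further from the controls. Results that rest on 1 of these are given with and without it.

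The adult aquaporins fell into groups by their direction, and the sequence before the start of *Aqp11*, *Aqp7* and *Aqp2* is shown for the genes with the largest falls and the largest rise. RefSeq sequence for GRCm38.p6 was matched for 8 of the 9 genes. Each line gives the strand of the gene 5′ to 3′, from 250 bases before an annotated start up to the first annotated exon base. Capitals mark matches on either strand to TGACG, the core of a cAMP response element, AGAACA, one arm of the site of androgen and glucocorticoid receptors, and TATAA, and CCAAT was searched as well. The *Aqp11* stretch is chr7:97738290-97738497 on the minus strand, that of *Aqp7* is chr4:41048238-41048386 on the minus strand and that of *Aqp2* is chr15:99578806-99579054 on the plus strand.
Aqp11: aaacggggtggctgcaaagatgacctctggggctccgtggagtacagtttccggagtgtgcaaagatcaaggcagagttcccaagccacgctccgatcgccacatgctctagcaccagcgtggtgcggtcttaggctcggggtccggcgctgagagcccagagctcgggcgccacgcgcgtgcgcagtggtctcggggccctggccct
Aqp7: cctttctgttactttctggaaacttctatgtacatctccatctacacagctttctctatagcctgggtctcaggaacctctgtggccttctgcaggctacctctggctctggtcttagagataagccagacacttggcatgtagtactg
Aqp2: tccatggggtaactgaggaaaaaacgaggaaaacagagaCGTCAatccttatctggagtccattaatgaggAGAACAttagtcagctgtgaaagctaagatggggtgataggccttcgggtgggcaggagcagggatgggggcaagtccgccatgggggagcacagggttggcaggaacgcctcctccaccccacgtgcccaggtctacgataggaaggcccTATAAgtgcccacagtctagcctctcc

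*Aqp2* held TGACG on its minus strand (printed as its complement CGTCA) 211 bases before the start, AGAACA 179 bases before it and TATAA 28 bases before it. Among all 32851 windows of 250 bases, 17.8% held TGACG, 16.1% AGAACA, 22.8% TATAA and 33.8% CCAAT. None of these letters was found in the window of *Aqp11* or in the *Aqp7* stretch shown, which says only that they are not in those bases. The window of the other annotated start of *Aqp7*, which lies inside the gene and is not shown, held AGAACA 173 bases before that start. Of the members not shown, *Aqp9* held AGAACA 138 bases before its start and TATAA 71 and 72 bases before it. *Aqp3* held TATAA 29 bases before its start. The *Aqp11* stretch was 65.4% G and C, the *Aqp2* stretch 55.4% and the *Aqp7* stretch 47.7%. In GRCm38.p6 *Aqp2* lies at chr15:99579056-99584545 and *Aqp5* at chr15:99591028-99594829 on the same strand, 6.48 kb apart, and *Aqp7* lies at chr4:41033074-41048237 on the minus strand, 44.5 kb from *Aqp3* at chr4:41092724-41098183. *Aqp11* (chr7:97726379-97738247), *Aqp9* (chr9:71110659-71167849), *Aqp8* (chr7:123462294-123468003) and *Aqp1* (chr6:55336299-55348555) have no other member nearby. *Aqp9* overlaps the antisense gene *Gm32511* and a pseudogene on the other strand, and *Aqp4* overlaps an antisense gene, and since the strand of counting is not stated, reads of such pairs cannot be told apart.

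In day 7 Sertoli cells *Aqp5* was the leading aquaporin mRNA. This water channel, known from the secretory cells of salivary and lacrimal glands, was at 64.16 and 55.07 FPKM in *Rnf20* Flox/Flox and at 22.03 and 44.97 FPKM in *Amh-Rnf20*-/-. It made up 67.1% to 91.8% of the summed FPKM of the 9 members in the 4 samples. Both *Amh-Rnf20*-/- samples were below both controls, with a log2 fold change of -0.80 (SE 0.35), and the gene was not called (adjusted p = 0.370). The 2 *Amh-Rnf20*-/- samples lay further apart than the controls, and the estimate was -1.39 (adjusted p = 6.55e-04) without replicate 2 and -0.37 (adjusted p = 0.0369) without replicate 1, where the lone sample left is assumed to vary like the controls.

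The other members were much lower at day 7. *Aqp1*, the water channel of endothelium, red blood cells and efferent ducts, was at 2.5 and 3.03 FPKM in controls and at 5.95 and 2.3 in *Amh-Rnf20*-/- (log2 fold change 0.62, SE 0.49, adjusted p = 0.594). The groups overlapped, and the high *Amh-Rnf20*-/- value came from replicate 1 alone: the log2 fold change was 1.15 (adjusted p = 0.00345) without replicate 2 and -0.23 (adjusted p = 0.460) without replicate 1. *Aqp2*, the vasopressin-regulated channel of the kidney collecting duct, was at 1.99 and 3.31 FPKM in controls and at 3.8 and 3.43 in *Amh-Rnf20*-/- (log2 fold change 0.49, SE 0.31, adjusted p = 0.514). *Aqp11* was at 0.65 and 1.36 FPKM in controls and at 0.38 and 0.49 in *Amh-Rnf20*-/- (log2 fold change -1.16, SE 0.52, adjusted p = 0.379). For these 2 genes the samples did not overlap between groups, with *Aqp2* above and *Aqp11* below the controls. But *Aqp11* passed the filter on low values only through the controls, and its counts were only 12, 25, 7 and 9. Its log2 fold change was -0.55 without control replicate 2 and -1.59 without control replicate 1. In controls the order of levels was *Aqp5*, then *Aqp1* and *Aqp2*, whose ranges overlapped, then *Aqp11*.

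The other 5 members did not pass the filter on low values at day 7. *Aqp7* was at 0.38 and 0.29 FPKM in controls and at 0.1 and 0.15 in *Amh-Rnf20*-/-, on counts of 9, 6, 4 and 6. *Aqp9*, *Aqp8* and *Aqp3* were at 0 to 0.27 FPKM in the 4 samples, and *Aqp4* had 1 count in a single sample. Differences in these genes were not detectable at this depth. The 7 counts of *Aqp3*, known from basolateral membranes of epithelia, all but 1 of those in the table, were in *Amh-Rnf20*-/- replicate 1.

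Across the day 7 table, 0 of the 4 tested members were called, where 0% of the 12880 genes tested were called. At an unadjusted p under 0.05, edgeR's test gave 0 members and 1997 genes. At an adjusted p under 0.05, DESeq2 called 0 members and 581 genes. Groups did not overlap for 3 of the 4 tested members, 1 higher and 2 lower, against 51% of all genes tested. Of the 2 lower, *Aqp11* reached 0.5 FPKM only in the controls. That by itself kept its groups from overlapping in FPKM, so it is no separate result.

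**Figure D1:**
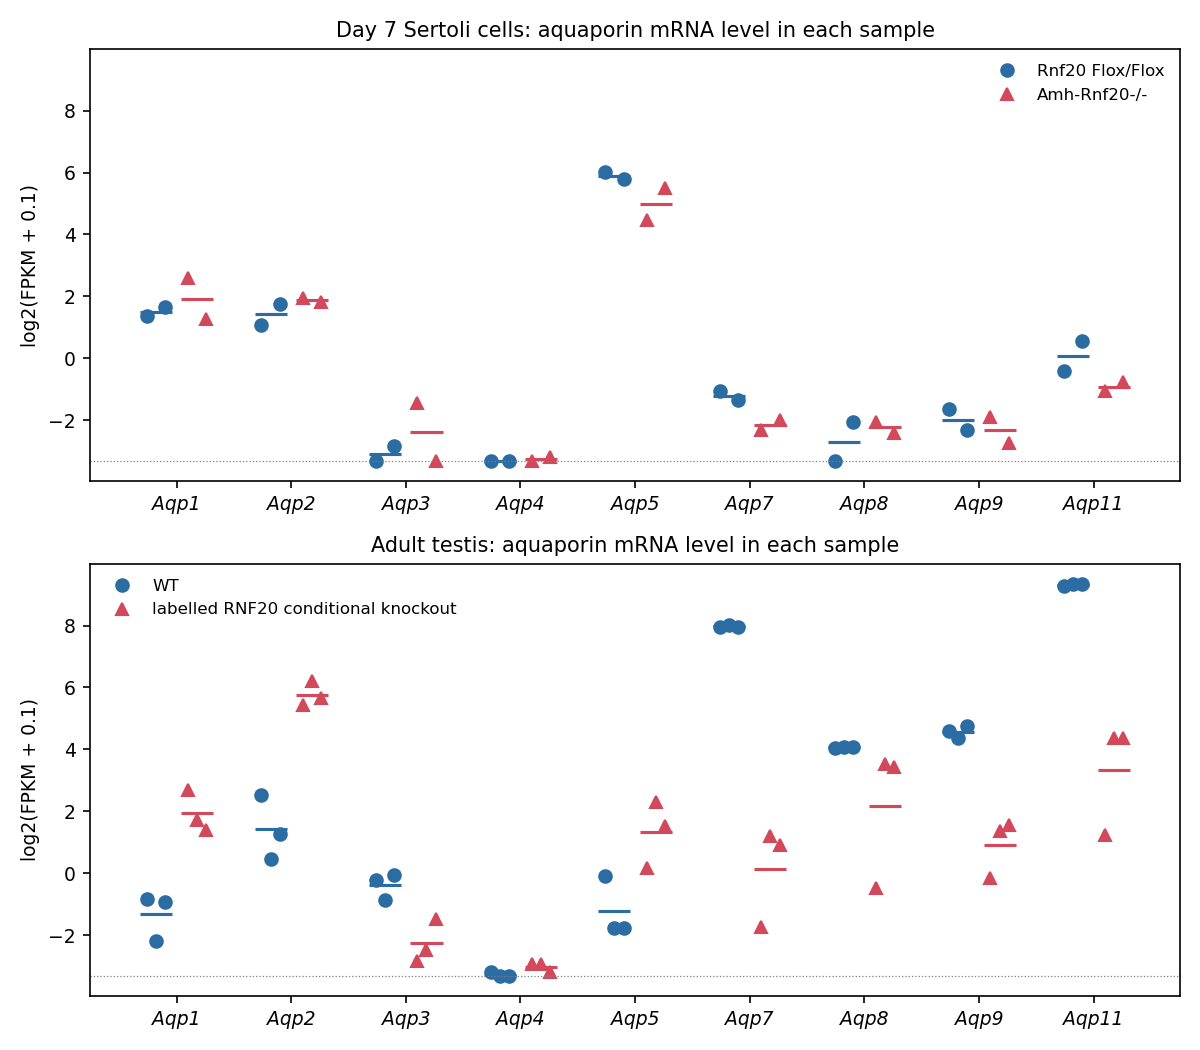
Level of each aquaporin in each sample on the log2(FPKM + 0.1) scale, with day 7 Sertoli cells above and adult testis below; points are samples, short lines are group means and the dotted line is an FPKM of 0. *Aqp5* leads at day 7, while *Aqp11* and *Aqp7* lead in adult WT and *Aqp2* leads in the adult cKO libraries.

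Levels of several lists of cell type markers also lay apart between the day 7 groups, with no marker called. For each list, the mean over its genes of log2(FPKM + 0.1) was taken relative to the control mean. The list of 14 Sertoli cell markers was at -1.38 and -0.23 in *Amh-Rnf20*-/- replicates 1 and 2, with none of the 14 called or at 0. Its summed level was 2655 to 2897 FPKM in controls and 1805 to 2152 in *Amh-Rnf20*-/-. The lists of 7 peritubular myoid cell markers (1.07 and 0.97) and 6 fibroblast markers (1.15 and 0.74) were higher, again with none called. The lists of 7 Leydig cell markers (0.49 and 0.51) and 8 macrophage markers (0.70 and 0.40) were also above the controls. The germ cell lists were below them, at -0.86 and -0.43 for 10 spermatogonium markers and at -0.68 and -0.41 for 10 spermatocyte markers, as were *Aqp11* and, in FPKM, *Aqp7*. The endothelial list (0.55 and -0.20) and the list of the rete testis, efferent ducts and epididymis (0.07 and -0.50) overlapped with the controls. Relative to the Sertoli cell list, *Aqp5* was at 0.02 and -0.02 in controls and at -0.05 and -0.17 in *Amh-Rnf20*-/-. On this relative scale both *Amh-Rnf20*-/- values of *Aqp5* were still below the controls, with group means that differed by -0.11. *Aqp2* stayed above the controls (1.93 and 0.64 against -0.44 and 0.44). *Aqp11* overlapped with the controls on it (0.26 and -0.59 against -0.57 and 0.57), as did *Aqp1* (2.46 and -0.02 against -0.22 and 0.22). The part of the makeup of the cultures in the aquaporin levels was not tested, and with bulk RNA fewer cells of a type and less RNA per cell cannot be told apart, in the cultures or in the testis.

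In adult testis the aquaporins moved in opposite directions. *Aqp7*, *Aqp9* and *Aqp11* fell in the cKO libraries, and *Aqp1* and *Aqp2* rose. *Aqp8* and *Aqp5* were not called by edgeR with TMM scaling but were called by DESeq2, and *Aqp3* and *Aqp4* did not pass the filter on low values. Thus 5 of the 7 tested members were called, where 81.5% of the 15919 genes tested were called, 40.9% as higher and 40.6% as lower, and 2 members were called higher and 3 lower. Groups did not overlap for 6 of the 7, 2 higher and 4 lower, against 85.5% of all genes tested. Of the 2 higher, *Aqp1* passed the filter only through the cKO samples, where it was high. These shares of members are near those of the whole table, so the direction and the size of each gene carry the description rather than the count.

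The largest fall was in *Aqp7*, an aquaglyceroporin of spermatids, spermatozoa and fat cells. It was at 247.59, 258.02 and 250.27 FPKM in WT and at 0.2, 2.22 and 1.77 FPKM in cKO. The WT samples lay close together, and every cKO sample was far below them. The fall was 258-fold (log2 fold change -8.01, SE 0.72, adjusted p = 1.365e-04), and the cKO counts were 7, 47 and 39 against 4367 to 4628 in WT. Without cKO replicate 1, the lowest, the log2 fold change was -7.43 (adjusted p = 2.00e-08).

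*Aqp11* was the most abundant aquaporin mRNA in WT testis, at 621.39, 652.37 and 648.31 FPKM. In cKO it was at 2.25, 20.65 and 20.55 FPKM, 82.0-fold lower (log2 fold change -6.36, SE 0.90, adjusted p = 8.13e-04). Replicate 1 was again the lowest, and without it the log2 fold change was -5.73 (adjusted p = 2.06e-08). *Aqp9*, an aquaglyceroporin known from liver and the epididymis, was at 23.85, 20.51 and 27.18 FPKM in WT and at 0.79, 2.46 and 2.86 in cKO, 20.8-fold lower (log2 fold change -4.38, SE 0.45, adjusted p = 2.12e-04).

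*Aqp8* split the cKO libraries. It was at 16.32, 16.83 and 16.64 FPKM in WT, at 0.62 in cKO replicate 1 and at 11.49 and 10.64 in cKO replicates 2 and 3. All 3 cKO samples were below WT, and with this spread the gene was not called (log2 fold change -2.02, SE 0.85, adjusted p = 0.0646). Without cKO replicate 1 the log2 fold change was smaller, at -1.35, and called (adjusted p = 3.94e-05), and with all samples DESeq2 called it at -2.24 (adjusted p = 0.0140). *Aqp3* was at 0.76, 0.45 and 0.86 FPKM in WT and at 0.04, 0.08 and 0.26 in cKO, below WT in all 3 samples, on 51 counts over the WT samples and 9 over the cKO samples. It was called when edgeR was run without the filter (log2 fold change -3.21, SE 0.65, adjusted p = 0.00423).

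*Aqp2* rose most. It was at 5.67, 1.26 and 2.33 FPKM in WT and at 42.68, 74.63 and 50.37 FPKM in cKO. The groups were far apart, although the WT samples themselves ranged widely. The rise was 10.05-fold (log2 fold change 3.33, SE 0.55, adjusted p = 0.00158), and 4.07 on the log2 scale (adjusted p = 9.96e-04) without WT replicate 1, the highest of the controls.

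*Aqp1* was at 0.46, 0.12 and 0.42 FPKM in WT and at 6.28, 3.21 and 2.56 in cKO, a rise of 6.80-fold (log2 fold change 2.77, SE 0.60, adjusted p = 0.00530). All cKO samples were above WT, with replicate 1 the highest. *Aqp1* passed the filter on low values only through the cKO samples, as all WT values were under 0.5 FPKM. In FPKM its groups could therefore not overlap. *Aqp5* was at 0.84, 0.19 and 0.19 FPKM in WT and at 1.02, 4.77 and 2.75 in cKO (log2 fold change 1.94, SE 0.79, adjusted p = 0.05955). The groups did not overlap in FPKM but did in TMM-scaled CPM, where WT replicate 1 (1.43) was above cKO replicate 1 (1.04). Without cKO replicate 1 the log2 fold change of *Aqp5* was 2.45 (adjusted p = 0.00452) and without WT replicate 1 it was 2.98 (adjusted p = 0.0243), while without any one of the other 4 samples it was 1.34 to 2.13 and not called, lowest without cKO replicate 2 (adjusted p = 0.187). With all samples *Aqp5* was called by DESeq2 (adjusted p = 0.0439) and by limma with a pseudocount of 0.1 (adjusted p = 0.0166) or 1 (adjusted p = 0.0180). *Aqp4*, the water channel of astrocytes, was at 0 to 0.03 FPKM in the 6 samples, with 1 count over the WT and 5 over the cKO samples.

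The aquaporin genes outside the chosen members add little to this. *Aqp12* was at a mean of 0.49 FPKM in WT and 2.34 in cKO (log2 fold change 1.39, SE 0.51, adjusted p = 0.0425), and it was not called without the filter on low values (adjusted p = 0.0502). *Aqp6*, next to *Aqp5* on chromosome 15, had 0 counts over the WT samples and 6 over the cKO samples, and *Mip*, the aquaporin of the eye lens, had 9 and 7.

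The adult fold changes shift with the scaling. Over all genes the median was 0.01 on the log2 scale with TMM scaling, -0.19 with median-ratio (RLE) scaling and 0.87 with scaling by total counts. No tested member changed sign among the 3 scalings. With total counts *Aqp7* was at -7.13, *Aqp11* at -5.47, *Aqp9* at -3.51, *Aqp2* at 4.17 and *Aqp1* at 3.58, and *Aqp5* was called (2.79, adjusted p = 0.0181). Among these scalings *Aqp8* was called only with RLE (-2.23, adjusted p = 0.0456), and it was at -1.13 (adjusted p = 0.252) with total counts. Among all genes called, 50.1% were higher with TMM, 46.3% with RLE and 64.3% with total counts.

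**Figure D2:**
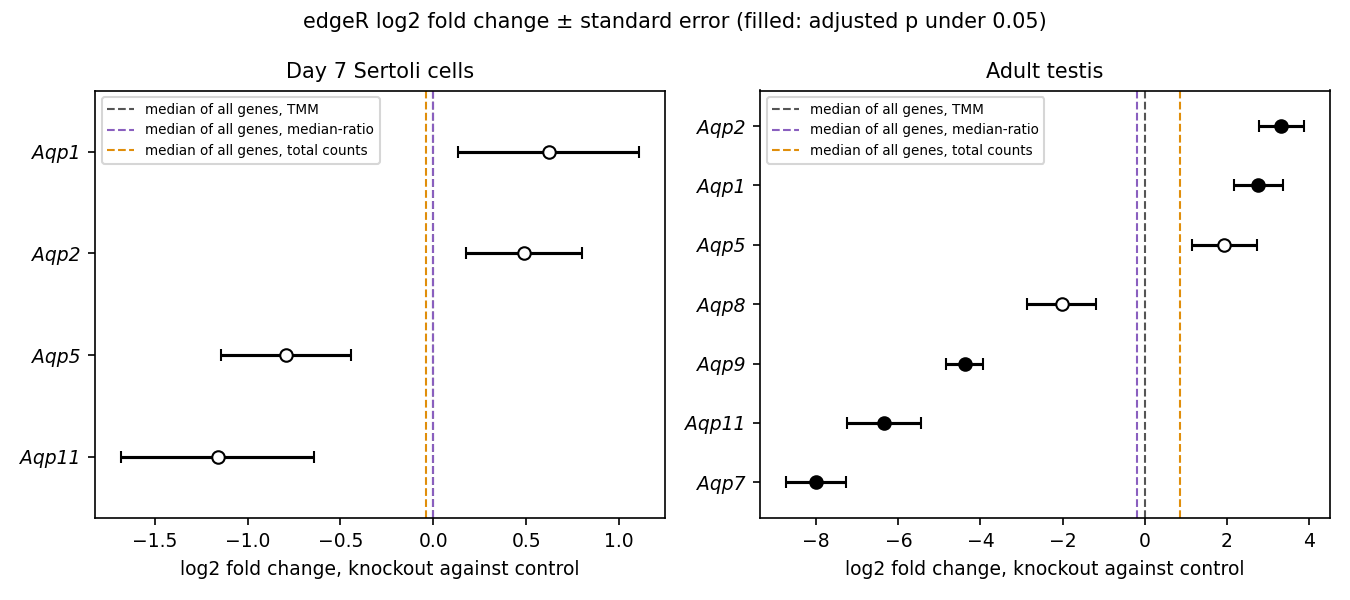
Log2 fold change of each tested aquaporin in day 7 Sertoli cells (left) and adult testis (right), with bars of 1 standard error from edgeR and filled points for an adjusted p under 0.05. Dashed lines mark the median of all genes under each of 3 scalings (at day 7 the TMM and median-ratio lines coincide); no member is called at day 7, and the 5 called in the adult range from -8.01 (*Aqp7*) to 3.33 (*Aqp2*).

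The total and the composition of aquaporin mRNA both differed. The summed FPKM of the 9 members was 916.89, 949.75 and 946.20 in WT testis and 53.91, 119.54 and 91.77 in cKO. In WT, *Aqp11* made up 67.8% to 68.7% of this sum and *Aqp7* 26.5% to 27.2%, so that these genes held nearly all of it. In cKO, *Aqp2* made up 54.9% to 79.2%. The WT order was *Aqp11*, *Aqp7*, *Aqp9*, *Aqp8* and *Aqp2*, with no overlap between neighbours, followed by *Aqp3*, *Aqp5* and *Aqp1*, which overlapped in turn. In cKO *Aqp2* came first, clear of *Aqp11*, and the ranges from *Aqp11* through *Aqp8*, *Aqp1*, *Aqp5* and *Aqp9* to *Aqp7* each overlapped the next. At day 7 the sum was 69.90 and 63.34 FPKM in controls and 32.84 and 51.49 in *Amh-Rnf20*-/-.

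**Figure D3:**
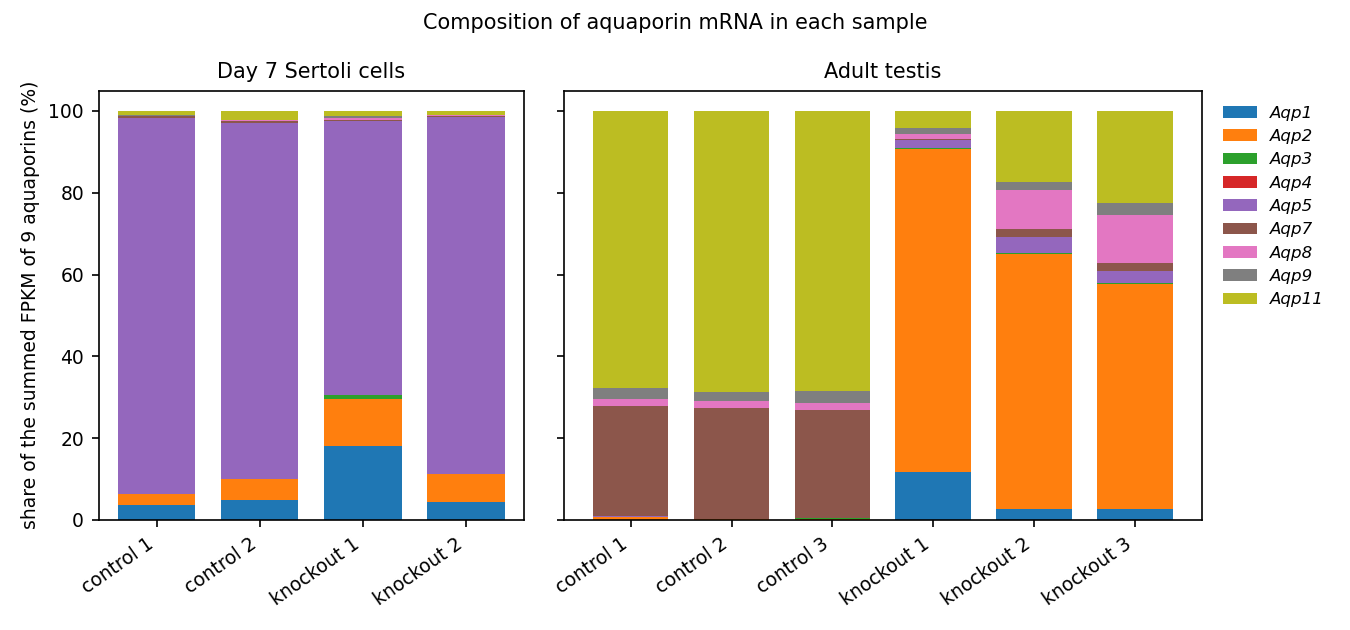
Share of each aquaporin in the summed FPKM of the 9 members, one bar per sample, with control and knockout labels as in GEO and the day 7 samples on the left. *Aqp5* fills 67.1% to 91.8% of the day 7 bars, *Aqp11* and *Aqp7* fill the adult WT bars, and *Aqp2* fills 54.9% to 79.2% of the adult cKO bars.

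Markers of germ cells and of somatic cells also differed between the adult groups. Here and below, genes counted as rising or falling are those called, to be read against the 81.5% of all adult genes tested that were called. All 10 spermatid markers fell, from a summed level of 123600 to 192200 FPKM in WT to 3.74, 94.99 and 54.12 in cKO replicates 1 to 3. Of 10 spermatocyte markers 6 fell, from 5673 to 5869 FPKM in WT to 3.21, 385.6 and 559.8 in cKO, and in TMM-scaled CPM all 10 were below WT in every cKO sample. In FPKM *Dmc1*, which acts in meiotic recombination, overlapped between the groups, at 6.21 to 8.69 in WT and at 0.87, 5.3 and 8.19 in cKO. The spermatogonium list went both ways, with 2 of 9 tested genes called higher and 4 lower, and summed to 264.7 to 296.5 FPKM in WT and to 48.32, 304.8 and 444 in cKO. None of these germ cell markers was at 0 in every sample. The cKO library lowest in both lists, replicate 1, was also the lowest for *Aqp7*, *Aqp8*, *Aqp9* and *Aqp11*. The mean of the spermatocyte list relative to WT was -8.40, -2.62 and -1.88 on the log2 scale in cKO replicates 1, 2 and 3. *Aqp8* was likewise far lower in replicate 1 than in replicates 2 and 3. This split was not particular to the spermatocyte list. The spermatogonium list was at -2.65, 0.26 and 0.76 in cKO replicates 1, 2 and 3, and the Sertoli cell list at -0.17, 1.87 and 2.36.

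Somatic markers were higher in the cKO libraries. All 7 Leydig cell markers, 6 fibroblast markers and 8 macrophage markers rose, as did 7 of 9 endothelial markers, whose summed level went from 8.02 to 9.36 FPKM in WT to 84.09, 52.59 and 48.85 in cKO. Of 7 peritubular myoid cell markers 5 rose and *Actg2*, a smooth muscle actin, fell by 7.73 on the log2 scale. Of 5 red blood cell markers tested 4 rose and 1 fell, and their summed level was 89.08 to 128 FPKM in WT and 3176, 1582 and 673.3 in cKO. *Aqp1* is known from endothelium and red blood cells. Its highest cKO value was in replicate 1, as were the highest sums of the endothelial, red blood cell, fibroblast (3390, 1327 and 1303 FPKM) and macrophage (2842, 2317 and 1781 FPKM) lists. The sum of the Leydig cell list was instead lowest in replicate 1 (63490, 88130 and 71520 FPKM in cKO replicates 1, 2 and 3). Of this sum *Insl3* alone made 54592.24, 80265.61 and 65864.76 FPKM. The mean of the list relative to WT on the log2 scale was highest in replicate 1 (4.82, 4.69 and 4.38). Of 5 tested markers of the rete testis, efferent ducts and epididymis, whose epithelia are known to hold aquaporins, 3 rose (*Pax8*, *Cdh1* and *Cldn10*) and none fell, and *Pax2* was at a log2 fold change of -1.92 (adjusted p = 0.0821). The sums over the list were 20.95 to 21.45 FPKM in WT and 58.73, 110.2 and 140.3 in cKO, of which *Epcam*, not called (0.72, adjusted p = 0.429), made 6.97, 54.53 and 105.48 in cKO. The epididymal genes *Lcn8*, *Lcn9* and *Crisp1* were at 0 to 0.26 FPKM in all 6 samples, and *Lcn12* was at 0.11, 0 and 0.13 in WT and at 0.37, 0.99 and 0.14 in cKO. Among 4 tested fat cell markers 2 rose and 1 fell. The part of the cell makeup in the change of each aquaporin was not tested.

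The Sertoli cell list did not move as one. Of its 14 genes 6 were called higher and 1 lower, where 81.5% of all adult genes tested were called. Its mean relative to WT was -0.17 in cKO replicate 1 against 1.87 and 2.36 in replicates 2 and 3. The summed level was 1274 to 1708 FPKM in WT and 3273, 8164 and 9800 in cKO. Relative to this list, *Aqp2* was still above WT in every cKO sample (4.17, 2.94 and 1.88, against -0.82 to 0.87 in WT), while *Aqp1* and *Aqp5* overlapped with WT. *Aqp7*, *Aqp8*, *Aqp9* and *Aqp11* were below WT relative to it in every cKO sample.

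**Figure D4:**
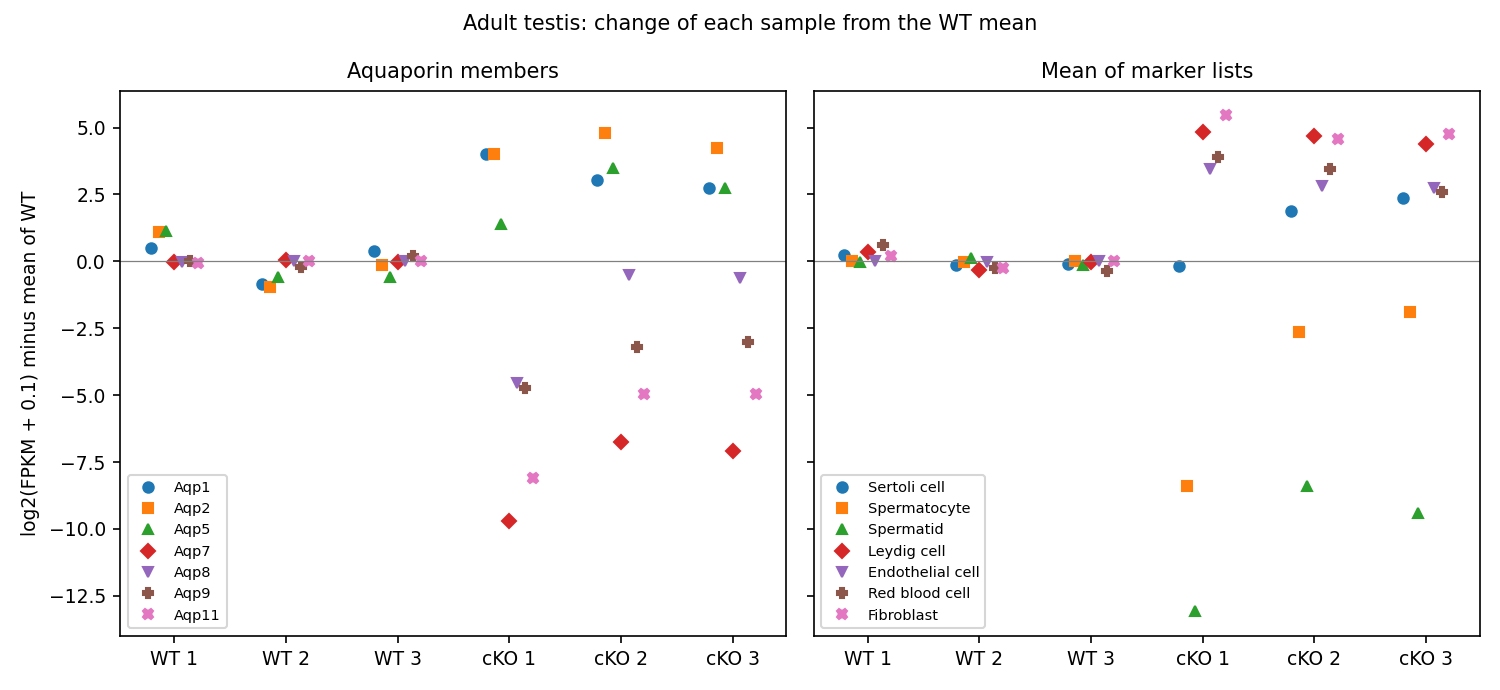
Change of each adult sample from the WT mean on the log2(FPKM + 0.1) scale, for the 7 tested aquaporins (left) and for the mean of 7 lists of cell type markers (right). In cKO replicate 1 the spermatocyte list is at -8.40 and the Sertoli cell list at -0.17, and *Aqp7*, *Aqp8*, *Aqp9* and *Aqp11* are lower than in cKO replicates 2 and 3.

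Genes that work beside the aquaporins were counted in 4 lists, to be read against the 81.5% of all adult genes tested that were called, 40.9% higher and 40.6% lower. Called were 12 of 13 tested genes of the glycerol list, 8 of 15 of the volume list, 9 of 12 of the transport list and 4 of 5 of the receptor list. In the glycerol list, 13 genes of glycerol release, phosphorylation and storage, 5 rose and 7 fell in adult testis (median log2 fold change -2.11, against 0.01 over all genes). *Plin1*, a coat protein of lipid droplets, rose by 3.56 (SE 0.60, adjusted p = 0.00173), and *Gpd2*, the mitochondrial glycerol-3-phosphate dehydrogenase, fell by 5.84 on the log2 scale (SE 0.21, adjusted p = 2.70e-05). Of 15 tested genes of cell volume regulation 7 rose and 1 fell (median 0.52), with *Trpv4*, an osmosensitive calcium channel, at 3.32 (SE 0.47, adjusted p = 8.25e-04) and *Lrrc8b*, a subunit of volume-regulated anion channels, at -5.46 (SE 0.46, adjusted p = 1.03e-04).

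Of 12 tested genes of tubule fluid and acid-base transport 5 rose and 4 fell (median 1.0). *Slc14a1*, a urea transporter, was at a log2 fold change of 4.05 (SE 0.51, adjusted p = 4.89e-04) and *Car2*, a cytosolic carbonic anhydrase, at -6.82 (SE 0.38, adjusted p = 3.59e-05). Of 5 tested receptors for hormones that act on aquaporins 4 rose and none fell (median 3.69). *Avpr1a*, a vasopressin receptor, was at 4.58 (SE 0.41, adjusted p = 1.31e-04). *Avpr2*, the receptor that vasopressin uses to regulate *Aqp2* in the kidney, was too low to be tested, with a mean of 0 FPKM in WT and 0.0433 in cKO. At day 7 none of the 11, 15, 7 and 4 tested genes of these lists was called.

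The genes whose levels followed the leading aquaporins most closely were named by the root mean square difference of centred log2 CPM over the samples. In adult testis, over 6 samples, *4921536K21Rik* (0.086), *Amer2* (0.089) and *Ppp1r42* (0.097) were nearest to *Aqp11*, and *Spaca9* (0.168), *Fam187b* (0.195) and *Fam183b* (0.205) were nearest to *Aqp7*. At day 7, over 4 samples, *Fgd6* (0.052), *St3gal5* (0.060) and *Gas7* (0.065) were nearest to *Aqp5*, and *Tmem108* (0.050), *Serinc2* (0.060) and *Bche* (0.066) to *Aqp1*. These are the closest of 15919 and 12880 genes, and few samples set the pattern.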

How the data were processed

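RNA-seq of poly(A)-enriched RNA was measured in 4 day 7 Sertoli cell samples and 6 adult testis samples. The authors used HISAT for mapping to GRCm38.p6, Bowtie2 for mapping to the annotated genes and RSEM for values per gene. Versions and the strand setting are not given in the sources used here, and the study's text does not describe the adult samples. The deposited estimated counts are not normalized. The deposited FPKM values correct for library size and gene length. The deposited TPM values have 1 fixed total in all samples and were left untested. For the adult samples, 20 further columns held no value. At day 7 the study names 3 individuals in each group, and the labels given here hold 2 samples in each, with no label that ties them to individuals.

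Groups came from the labels. Each table was analysed on its own. Estimated counts, of which 10.7% to 13.2% differed at all from a whole number, were rounded, and tested by edgeR 4.0.16 (R 4.3.3) with TMM factors of 0.984 to 1.017 at day 7 and 0.710 to 1.42 in the adult. Standard errors were obtained from the fold change and the square root of F. Samples of a group differed by 2.65 to 118 times the counting variance (chi-square per degree of freedom), least between the day 7 controls, and 3 counts were taken as the floor. The design named the members, *Rnf20*, the other aquaporins, the extremes of the related lists and the 3 genes nearest to the 2 leading members of each table. The members and lists were chosen with earlier results of these data known. Per-sample levels used log2(FPKM + 0.1). Alternatives were RLE or total count scaling, no filter, a mean FPKM of at least 1, DESeq2 1.42.0, limma 3.58.1 on log2(FPKM + 0.1) or log2(FPKM + 1), a replicate block, each sample left out and the study's thresholds (absolute log2 fold change over 1, adjusted p under 0.001). The edgeR fit was also run on simulated data, with the outcome not shown here. No 2 samples of a group agreed within sampling noise.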

Additional observations from a re-analysis of the deposited data

Results flagged for a closer look

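The values of *Aqp5* lay on opposite sides of the controls at the 2 ages. In FPKM, both *Amh-Rnf20*-/- samples of day 7 Sertoli cells were below both controls (log2 fold change -0.80), and all 3 adult cKO testis samples were above all WT samples (log2 fold change 1.94). On TMM-scaled CPM the adult groups overlapped. The gene was called at neither age by edgeR with TMM scaling. In the adult it was called with total count scaling (adjusted p = 0.0181), by DESeq2 (adjusted p = 0.0439) and by limma. The difference between the ages was not tested, since the tables hold different material and were normalized separately.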

How the results depend on the processing

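At day 7 the number of aquaporins called stayed at 0 under every alternative that kept all samples, and was 0 to 2 when 1 sample was left out. The number of genes called was 581 with DESeq2, 0 with the other alternatives on all samples, and 0 to 5049 when 1 sample was left out: 2733 without *Amh-Rnf20*-/- replicate 1 and 5049 without replicate 2. The log2 fold change of *Aqp1* ran from -0.23, reversed, without *Amh-Rnf20*-/- replicate 1 to 1.15 without replicate 2. In adult testis 5 members were called. With all samples it was 6 with RLE (adding *Aqp8*), total count scaling or either limma fit (*Aqp5*) and no filter (*Aqp3*), and 7 with DESeq2 (*Aqp5*, *Aqp8*). The number of genes called was 12969 with edgeR and TMM scaling, 12913 with RLE, 13390 with total counts and 13115 with DESeq2. It was 13399 and 13507 with limma at pseudocounts of 0.1 and 1, 14088 with no filter and 11955 with the mean FPKM filter. When 1 sample was left out 5 to 8 members were called, with 8 without cKO replicate 1 (*Aqp3*, *Aqp5*, *Aqp8*). Over all genes 14089 were called without cKO replicate 1, and 12141 to 12727 without any other sample. A left-out sample also lets genes pass the filter in 2 samples, and *Aqp3* was then also called without cKO replicate 2, cKO replicate 3 or WT replicate 2. At the study's thresholds 3 members (*Aqp7*, *Aqp9*, *Aqp11*) and 7432 genes passed, fewer by construction. Of 98 alternative values of the adult members 89 kept their direction and side of the threshold, 9 became called and 0 reversed. At day 7, of 47 values 43 stayed, 3 became called and 1 reversed. The causes were not tested.

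No label says that the replicate numbers pair the samples. In adult testis the deviations of same-numbered samples correlated at 0.018 to 0.026, and those of differently numbered samples at -0.022 to 0.006. At day 7 the values were 0.037 and -0.037, which 2 samples a group force to be equal and opposite. Correlations this small do not settle whether samples were paired. With the replicate block, 0 members and 0 genes were called at day 7, and 5 members and 12209 genes in adult testis, against 12969 without it.

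With 2 samples a group at day 7, and counts under 10 for 5 of the members there, small differences could not be seen. Leaving out 1 day 7 sample leaves a single sample in its group, assumed to vary like the other group.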
